A study of Mus musculus with 12 samples.

Results

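The genes described here are the 35 mouse genes of glycolysis and of lactate and pyruvate metabolism, taken by symbol from the 23983 gene entries of each deposited table. All 35 were found, 1 of them (Eno1) in an entry that it shares with its intronless copy Eno1b. They run from a glucose transporter to pyruvate carboxylase and fall into 11 steps. They are matched by symbol alone.

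RNA was measured by RNA-seq in brains of mice at postnatal day 0, in cortex and in subcortex, with 3 libraries in each of 4 groups and 12 in all. The control groups were wild type (WT). The other groups, called vKO for vascular knockout, carried the genotype written Reck flex2/Δex1; Tie2Cre, and the strain of all groups was given as mixed. Tie2 drives Cre in endothelial cells and also in blood lineages, and the Δex1 allele is part of the vKO genotype, so the groups differ in more than the vessels. The study asked how loss of Reck, a membrane-anchored co-receptor for Wnt7 signals on brain endothelium, changes the RNA of the brain. The labels do not say whether replicates were separate animals, so the deposited p-values may measure a technical spread. Each gene has a single value in each group and none per replicate. The unit is FPKM, a count of fragments relative to transcript length and to all mapped fragments. Neither an SD nor the depth behind a value can therefore be given, and no test was run over samples. A gene is called, and is said to have risen or fallen, where the q-value of the authors' deposited table was under 0.05.

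Glycolysis breaks glucose down to pyruvate. Hexokinase traps glucose in the cell, phosphofructokinase commits it to the pathway, and the lower enzymes from Gapdh to pyruvate kinase recover ATP. Pyruvate is then either reduced to lactate by lactate dehydrogenase and exported, or carried into mitochondria and oxidised by pyruvate dehydrogenase, which the Pdk kinases switch off. Many of these genes are known targets of hypoxia-inducible factors, which bind the core letters ACGTG or GCGTG, and newborn brain depends on blood-borne glucose, ketone bodies and lactate.

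The letters before the start sites are shown for 5 of the members that were higher in vKO cortex, since they stand at the entry, the middle and the lactate end of the pathway. Each line gives the 250 bases before the annotated start, 5′ to 3′ on the strand of the gene, from RefSeq on GRCm38.p6. The motif ACGTG is in capitals, as is its reverse complement CACGT. So is the variant GCGTG, whose reverse complement reads CACGC. The windows are chr6:82774455-82774704 on the minus strand for Hk2, chrX:106186850-106187099 on the plus strand for Pgk1, chr7:46845554-46845803 on the plus strand for Ldha, chr11:120948817-120949066 on the plus strand for Slc16a3, and chr7:34230337-34230586 on the minus strand for Gpi1.

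Hk2: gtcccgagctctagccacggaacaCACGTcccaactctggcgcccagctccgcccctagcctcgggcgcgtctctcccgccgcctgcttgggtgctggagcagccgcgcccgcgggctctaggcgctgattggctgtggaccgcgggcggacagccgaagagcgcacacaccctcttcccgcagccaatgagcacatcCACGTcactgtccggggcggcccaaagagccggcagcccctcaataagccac
Pgk1: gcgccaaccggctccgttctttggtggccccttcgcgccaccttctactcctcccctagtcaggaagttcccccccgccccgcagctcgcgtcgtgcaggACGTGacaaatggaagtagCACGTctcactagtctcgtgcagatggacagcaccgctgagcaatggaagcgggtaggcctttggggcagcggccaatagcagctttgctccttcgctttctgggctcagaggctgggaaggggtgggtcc
Ldha: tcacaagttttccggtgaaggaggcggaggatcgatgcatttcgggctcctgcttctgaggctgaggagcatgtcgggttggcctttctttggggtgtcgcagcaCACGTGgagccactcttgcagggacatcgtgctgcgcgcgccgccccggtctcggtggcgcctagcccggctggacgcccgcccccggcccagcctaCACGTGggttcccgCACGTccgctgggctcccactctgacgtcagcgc
Slc16a3: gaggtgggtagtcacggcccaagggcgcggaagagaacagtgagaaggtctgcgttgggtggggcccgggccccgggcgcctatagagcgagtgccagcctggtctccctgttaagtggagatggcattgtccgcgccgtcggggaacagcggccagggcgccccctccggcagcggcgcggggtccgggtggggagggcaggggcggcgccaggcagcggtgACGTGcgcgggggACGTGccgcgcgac
Gpi1: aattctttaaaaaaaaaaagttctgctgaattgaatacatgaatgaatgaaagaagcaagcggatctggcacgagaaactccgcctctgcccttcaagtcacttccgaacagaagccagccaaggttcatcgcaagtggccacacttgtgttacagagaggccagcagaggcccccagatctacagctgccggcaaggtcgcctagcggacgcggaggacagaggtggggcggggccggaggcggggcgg

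These windows held 2 matches for Hk2, 2 for Pgk1, 5 for Ldha, 2 for Slc16a3 and 0 for Gpi1. The palindrome CACGTG, which appears in the Ldha window, reads as a match on each strand and was counted on both. RefSeq windows were found for 34 of the 35 members. At least 1 match was present in 40 of the 52 member windows (76.9%), in 15 of the 19 windows of members that rose in vKO cortex (78.9%) and in 25 of the 33 windows of the other members (75.8%). Over all 32851 windows of the same length, 12679 held a match (38.6%). Counted by gene, with a match in any window, the order of risers and others was the opposite: 10 of 12 risers (83.3%) and 20 of 22 other members (90.9%), against 41.5% of all 27025 genes. The median GC content was 60.4% in the member windows and 52.4% in all windows, and the letters of the motif are themselves rich in G and C. A match in such a window describes its letters and is not a site of binding.

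Several facts of the libraries bear on what follows. Reck, the targeted gene, was at 2.91 FPKM in WT cortex and 3.23 in vKO cortex, with q = 0.639 in the authors' deposited table, and at 2.37 and 3.49 FPKM in subcortex, with q = 0.333. A value over the whole gene in whole tissue does not check a deletion in vessels. The region markers went with the labels: the 6 cortex markers summed to 284 and 308 FPKM in WT and vKO cortex and to 14.8 and 13.6 in subcortex, while the 6 subcortex markers summed to 11.8 and 6.43 FPKM in cortex and to 94.2 and 89.9 in subcortex. Xist, the RNA of the inactive X chromosome, was at 0.0417 FPKM in WT cortex and 18.6 in vKO cortex, and at 0.0369 and 10.2 in subcortex, so the sex make-up of the WT and vKO groups differed in both tissues. Of the 35 members, 3 are X-linked (Pgk1, Pdha1 and Pdk3). In cortex the ratio of vKO to WT fell with transcript length over all genes (Spearman rho -0.551 over 13456 tested genes with an annotated length, which share the same libraries), and in subcortex it did not (0.022 over 13606). Ratios are therefore also given with the median ratio of tested genes of like length and GC content subtracted, called the trend-removed ratio.

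In the cortex of vKO mice, 12 of the 35 members were called higher and 0 lower in the authors' deposited table. The risers were Hk2, Gpi1, Aldoa, Aldoc, Tpi1, Gapdh, Pgk1, Eno1, Ldha, Ldhb, Slc16a3 and Pdk1. Over all 13594 tested genes, 8.15% were called higher, 11.3% lower and 19.5% in either direction. Leaving the q-values aside, 27 of the 35 members had a higher FPKM in vKO than in WT, against 50.4% of all tested genes. By transcript length this held for 11 of 11 members under 2000 bases, 11 of 15 from 2000 to under 4000, and 5 of 9 at 4000 or more. Short transcripts tended to higher ratios over all genes too, and the share of all genes in each length class is not given here. With the trend removed, the median log2 ratio of the members under 2000 bases was 0.18 in place of 0.54. Among them Pgam1, Mpc2 and Pdhb then lay below 0. The 12 risers stood 1.30- to 10.9-fold above WT with a median of 1.82-fold, and without Gapdh their range was 1.30- to 4.59-fold. The other 23 members lay between 0.782- and 1.47-fold of WT, with a median of 1.13-fold. The summed FPKM of all 35 members was 1454 in WT cortex and 2117 in vKO cortex. RNA was taken from bulk tissue, in which fewer or more cells of a type and less or more RNA per cell cannot be told apart.

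**Figure D1:**
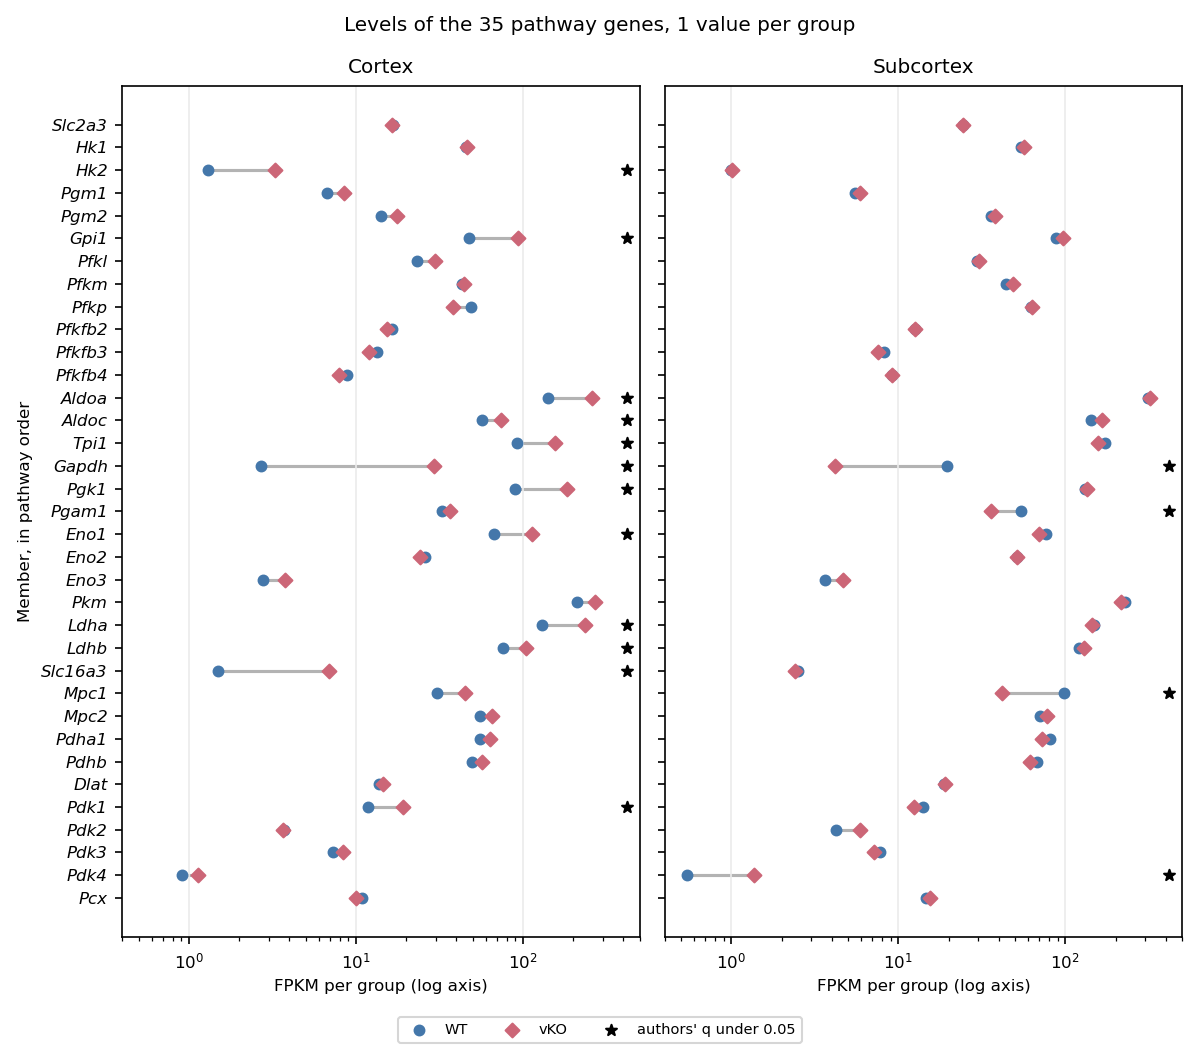
FPKM of each of the 35 members (log axis) in WT (blue circles) and vKO (red diamonds), in cortex at left and subcortex at right, in pathway order from glucose entry to pyruvate carboxylase. Each symbol is 1 value per group with no error bar, and a star marks q under 0.05 in the authors' deposited table. In cortex 12 stars stand beside genes whose vKO value is the higher, and in subcortex 3 of 4 stars (Gapdh, Pgam1 and Mpc1) stand beside genes whose vKO value is the lower.

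At glucose entry, the neuronal glucose transporter Slc2a3 was at 16.6 FPKM in WT cortex and 16.5 in vKO cortex. Hk1, the hexokinase of most brain cells, stood at 45.6 and 46.1 FPKM. Both pairs of values lay within about 0.01 of each other on the log2 scale. Hk2, the inducible hexokinase (chromosome 6, 82725025 to 82774454 on mm10, minus strand, 18 exons), was low in WT cortex at 1.30 FPKM and rose to 3.28. Its log2 ratio, taken here and below as log2((vKO FPKM + 1)/(WT FPKM + 1)), was 0.89, with q = 0.000806 in the authors' deposited table, the lowest q-value listed there for cortex. Its transcript of 5513 bases is among the long ones, which in this tissue tended to lower ratios, and its trend-removed ratio was 1.16. Hk2 remained a small part of the hexokinase RNA: it made up 2.78% of the summed FPKM of both hexokinases in WT cortex and 6.63% in vKO cortex.

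Among the genes that handle hexose phosphates, Gpi1, which converts glucose 6-phosphate to fructose 6-phosphate (chromosome 7, 34201330 to 34230336, 18 exons), rose from 47.4 to 94.1 FPKM, a log2 ratio of 0.97, with q = 0.000806 in the authors' deposited table. The entries named as phosphoglucomutases were not called. The entry named Pgm1 was at 6.73 FPKM in WT cortex and 8.46 in vKO cortex, and the entry named Pgm2 at 14.1 and 17.6. These symbols have been exchanged between annotations: the entry Pgm1 lies on chromosome 5 and the entry Pgm2 on chromosome 4, and the GENCODE M21 annotation names them the other way round.

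No member of the committing step was called in cortex. The liver-type phosphofructokinase Pfkl was at 23.2 FPKM in WT cortex and 29.6 in vKO cortex (log2 ratio 0.34, q = 0.0831 in the authors' deposited table). With the trend removed, the log2 ratio was 0.50 for Pfkl, -0.32 for Pfkp and 0.08 for Pfkm. The platelet type, Pfkp, stood at 48.9 and 38.2 FPKM (log2 ratio -0.35, q = 0.136 in the authors' deposited table), and the muscle type, Pfkm, at 43.1 and 44.2. Their sum was 115 FPKM in WT cortex and 112 in vKO cortex. The enzymes Pfkfb2, Pfkfb3 and Pfkfb4, which make and break the activator fructose 2,6-bisphosphate, had 16.5, 13.4 and 8.89 FPKM in WT cortex, against 15.4, 12.0 and 7.96 in vKO cortex. These 3 regulators were not called, and with the trend removed the log2 ratio of Pfkfb3 turned from -0.15 to 0.0016.

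Aldolase splits the hexose into trioses and Tpi1 interconverts them. Aldoa (chromosome 7, 126795234 to 126800751, 10 exons) rose from 141 to 258 FPKM, a log2 ratio of 0.86 with a trend-removed ratio of 0.64. Tpi1 (chromosome 6, 124810586 to 124814296, 7 exons) rose from 92.6 to 155 FPKM, a log2 ratio of 0.74 and 0.44 with the trend removed. Both had q = 0.000806 in the authors' deposited table. Aldoc, the aldolase of astrocytes and cerebellar Purkinje cells, rose from 56.7 to 73.8 FPKM, a log2 ratio of 0.37, and with q = 0.0486 in the authors' deposited table it was the riser nearest to the threshold.

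In lower glycolysis, Pgk1, which makes the first ATP of the pathway (chromosome X, 106187100 to 106203699, 11 exons), rose from 89.7 to 183 FPKM. Its log2 ratio was 1.02 and 0.85 with the trend removed, with q = 0.000806 in the authors' deposited table. Pgk1 is X-linked and the sex make-up of the groups differed, as the Xist values show, and the part of this in its ratio was not tested; the other X-linked members were not called, with Pdha1 at 55.5 and 63.6 FPKM and Pdk3 at 7.33 and 8.39. Eno1, the ubiquitous enolase (chromosome 4, 150236721 to 150248879, 12 exons), rose from 66.7 to 114 FPKM, a log2 ratio of 0.76, with q = 0.0255 in the authors' deposited table. Eno2, the neuronal enolase, was at 25.8 FPKM in WT cortex and 24.2 in vKO cortex and was not called. Eno3, the muscle enolase, stood at 2.79 and 3.74 FPKM, and the mutase Pgam1 at 32.6 and 36.8. Pkm, which makes pyruvate and had the highest FPKM of the members in both cortex groups, stood at 210 and 270 FPKM, a log2 ratio of 0.36, with q = 0.0937 in the authors' deposited table.

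Gapdh, the oxidising step between Tpi1 and Pgk1 (chromosome 6, 125161715 to 125166467, 7 exons), showed the largest ratio of the 35 members in cortex and in subcortex, in opposite directions. It rose from 2.69 to 29.3 FPKM in cortex (10.9-fold, log2 ratio 3.04, q = 0.000806 in the authors' deposited table) and fell from 19.6 to 4.18 FPKM in subcortex (log2 ratio -1.99, q = 0.0104 in the authors' deposited table). In each of the 4 groups Gapdh lay below Tpi1 and Pgk1, the enzymes before and after it, which stood between 89.7 and 183 FPKM. The annotation holds 76 loci, 74 of them pseudogenes, that share at least 200 bases with Gapdh transcripts at 95% identity or more. How the authors' counting shared reads among these loci is not known here, and its part in these values was not tested, so the values for Gapdh are uncertain in both tissues.

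At the lactate end, all 3 members rose in vKO cortex. Ldha, whose subunit favours the making of lactate (chromosome 7, 46841475 to 46855627, 8 exons), rose from 130 to 236 FPKM, a log2 ratio of 0.86 and 0.66 with the trend removed, with q = 0.000806 in the authors' deposited table. Ldhb, whose subunit favours the use of lactate, rose from 75.8 to 105 FPKM, a log2 ratio of 0.46 and 0.17 with the trend removed, with q = 0.0116 in the authors' deposited table. The level of Ldha was thus 1.71 times that of Ldhb in WT cortex and 2.25 times in vKO cortex. Slc16a3, the lactate exporter of strongly glycolytic cells (chromosome 11, 120948480 to 120960868, 6 exons), rose from 1.503 to 6.90 FPKM, or 4.59-fold. Its log2 ratio was 1.66, and 1.82 with the trend removed, with q = 0.000806 in the authors' deposited table.

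On the mitochondrial side of pyruvate, 1 of the 10 members was called in cortex. Pdk1, the pyruvate dehydrogenase kinase induced in hypoxia (chromosome 2, 71873224 to 71903858, 11 exons), rose from 11.9 to 19.2 FPKM, a log2 ratio of 0.65 and 0.71 with the trend removed, with q = 0.000806 in the authors' deposited table. The other kinases were not called: Pdk2 stood at 3.71 and 3.64 FPKM, Pdk3 at 7.33 and 8.39, and Pdk4 at 0.906 and 1.13. The subunits of pyruvate dehydrogenase itself were not called either. Pdha1 and Pdhb, of the decarboxylating part, stood at 55.5 and 49.4 FPKM in WT cortex and at 63.6 and 56.8 in vKO cortex, and Dlat, the acetyl transferase, at 13.8 and 14.5. The pyruvate carrier subunit Mpc1 stood at 30.8 and 45.3 FPKM with q = 0.0551 in the authors' deposited table, just outside the threshold, and its log2 ratio of 0.54 was 0.18 with the trend removed. Its partner Mpc2 stood at 55.5 and 65.4 FPKM. Pcx, which turns pyruvate into oxaloacetate in astrocytes, stood at 10.9 and 9.96 FPKM.

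**Figure D2:**
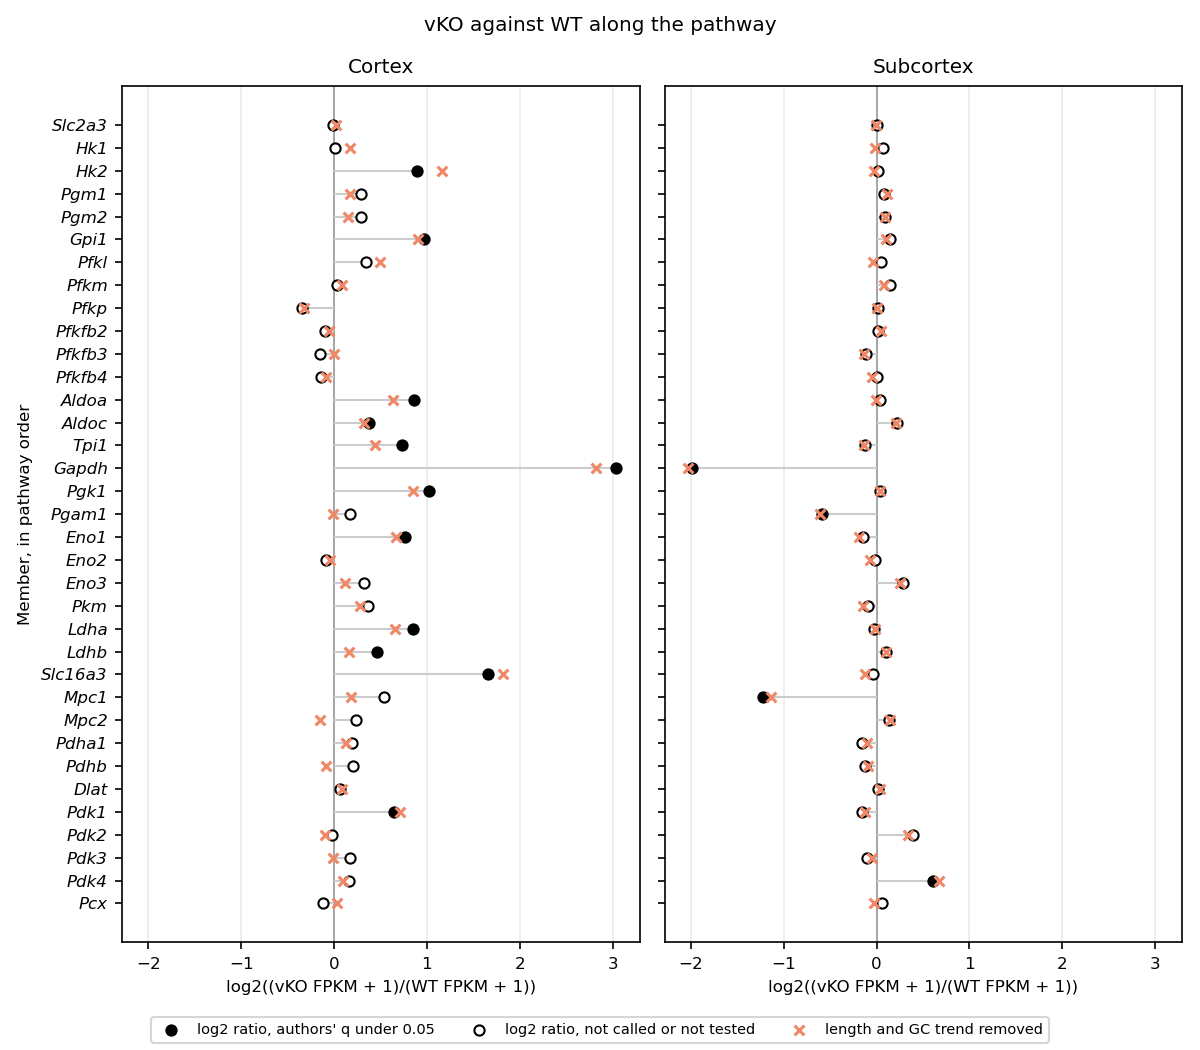
The log2 ratio of vKO to WT, log2((vKO FPKM + 1)/(WT FPKM + 1)), of each member in cortex at left and subcortex at right, in pathway order. Filled circles had q under 0.05 in the authors' deposited table, open circles were not called or not tested, and crosses give the ratio with the trend in transcript length and GC content removed. In cortex the 12 filled circles lie right of 0 and stay there as crosses, between 0.17 and 2.82, while Pfkp and the 3 Pfkfb genes have open circles left of 0, with the cross of Pfkfb3 at 0.0016.

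Where a reaction has several genes, some shares of the family's summed FPKM differed between WT and vKO cortex. Those of Pfkfb2, Pfkfb3 and Pfkfb4 hardly did, at 42.5%, 34.6% and 23.0% in WT and 43.6%, 33.9% and 22.6% in vKO. Eno1 made up 70.0% of enolase RNA in WT cortex and 80.3% in vKO cortex, and Eno2 made up 27.1% and 17.1%. Aldoa made up 71.4% and 77.7% of the aldolase sum, and Ldha 63.1% and 69.2% of the lactate dehydrogenase sum. Pdk1 made up 49.8% and 59.3% of the pyruvate dehydrogenase kinase sum. Among phosphofructokinases, the share of Pfkl was 20.2% in WT and 26.5% in vKO cortex and that of Pfkp 42.5% and 34.1%. In subcortex several shares lay closer together. Eno1 was at 58.1% and 55.4%, Aldoa at 68.7% and 65.9%, Ldha at 55.1% and 52.7%, Pdk1 at 52.7% and 46.4%, and Pfkl at 21.8% and 21.5%. The share of Pdk2 lay further apart there, at 16.0% and 21.8%, against 15.6% and 11.3% in cortex. The shares carry no error, since each rests on 1 value per group, and the trend was not removed from them. Differences between shares were not tested.

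**Figure D3:**
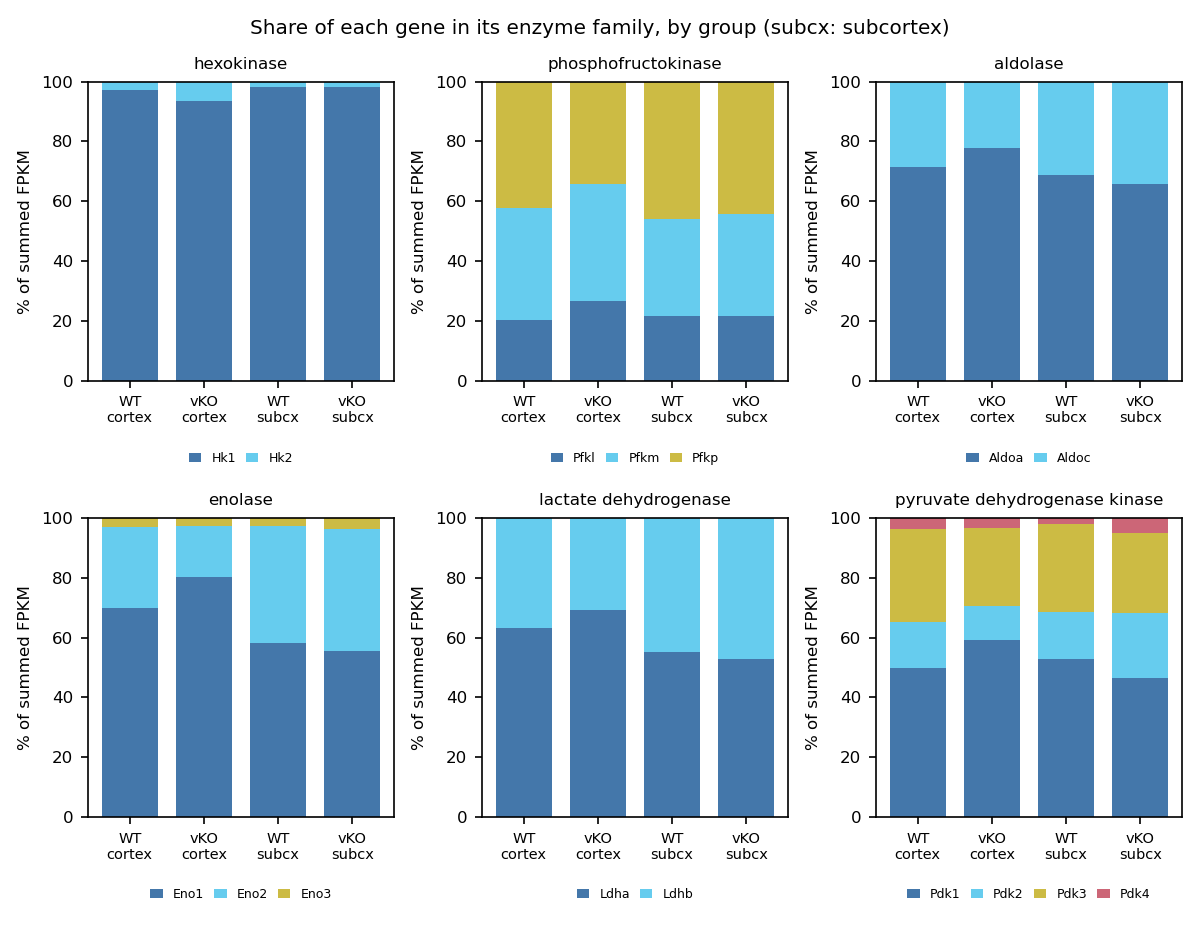
Share of each gene in the summed FPKM of its enzyme family (vertical axis, %, from 0 to 100) in the 4 groups, for hexokinase, phosphofructokinase, aldolase, enolase, lactate dehydrogenase and pyruvate dehydrogenase kinase. Each bar is 1 group with 1 value per gene and no error. The dark blue share of Eno1, Aldoa, Ldha and Pdk1 is larger in vKO than in WT cortex and smaller in vKO than in WT subcortex.

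In subcortex few members were called: 1 of 34 tested members was called higher (Pdk4) and 3 lower (Gapdh, Pgam1 and Mpc1) in the authors' deposited table. Over the 13735 tested genes there, 0.451% were called higher, 0.262% lower and 0.714% in either direction. Pdk4, the kinase known to respond to fasting and fatty acids (chromosome 6, 5483351 to 5496309, 11 exons), rose from 0.544 to 1.36 FPKM, a log2 ratio of 0.61, with q = 0.0264 in the authors' deposited table. Mpc1 (chromosome 17, 8282904 to 8297661, 6 exons) fell from 98.3 to 41.5 FPKM, a log2 ratio of -1.22, with q = 0.0104 in the authors' deposited table, while its partner Mpc2 stood at 70.7 and 77.5 FPKM. Pgam1 (chromosome 19, 41911923 to 41918660, 4 exons) fell from 54.5 to 35.9 FPKM, a log2 ratio of -0.59, with q = 0.0386 in the authors' deposited table. The third gene that fell was Gapdh. Each of the 3 has near-identical copies in the annotation (2 for Mpc1, 1 for Pgam1 and 76 for Gapdh), so none of the 23 tested members without a copy fell, and the part of the copies was not tested.

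Of the 12 members that rose in vKO cortex, Gapdh was the only one called in subcortex, by the authors' deposited table. Few genes of any kind were called in subcortex, 0.714% of all tested genes in either direction. The share called there among all genes higher in vKO cortex is not given here, so this count does not set the members apart. Hk2 was at 0.990 FPKM in WT subcortex and 1.01 in vKO subcortex and was not tested there. The other 10 stood close together in the 2 genotypes: Gpi1 at 87.4 and 96.7 FPKM, Pgk1 at 131 and 135, Ldha at 148 and 145, Slc16a3 at 2.50 and 2.42, and Pdk1 at 13.98 and 12.5. Aldoa stood at 314 and 321 FPKM, Aldoc at 143 and 166, Tpi1 at 172 and 158, Eno1 at 76.8 and 69.3, and Ldhb at 121 and 130. Without Gapdh and with Hk2 included, the log2 ratios of the cortex risers in subcortex lay between -0.15 and 0.22. Differences between the tissues in response could not be tested without replicate values.

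The remaining members in subcortex were not called and lay near WT. Slc2a3 stood at 24.3 and 24.4 FPKM in WT and vKO, Hk1 at 54.0 and 56.7, and the phosphofructokinases summed to 135 and 142. Pkm stood at 229 and 215 FPKM, Eno2 at 51.6 and 51.2, Pdha1 at 81.1 and 72.7, and Pcx at 14.7 and 15.4. Pdk2 stood at 4.23 and 5.86 FPKM and Eno3 at 3.64 and 4.64, the widest ratios among them at 0.39 and 0.28 on the log2 scale. Over all tested members the median log2 ratio was 0.01 in subcortex, against -0.00 over all tested genes, and 0.29 in cortex, against 0.00 over all tested genes.

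Set side by side, the levels of the members differed between the tissues in WT mice as well. The tables of the 2 tissues were made separately by the authors, so this is a description without a test. Of the 35 members, 30 had a higher FPKM in WT subcortex than in WT cortex, as did 7160 of 13170 genes tested in both tissues. The median log2 difference was 0.34 over the members and 0.05 over those 13170 genes. The 5 exceptions among the members were Hk2, Pgm1, Pfkfb2, Pfkfb3 and Pdk4. The 12 cortex risers were picked by their WT and vKO cortex values, which by itself favours both of the next figures. They had a median difference of 0.60 in WT, and 8 of them reached a value in vKO cortex above that of WT subcortex. Pgk1, for example, stood at 89.7 FPKM in WT cortex, 131 in WT subcortex and 183 in vKO cortex, and Ldha at 130, 148 and 236. Aldoa, Aldoc, Tpi1 and Ldhb stayed below their WT subcortex values, at 258 against 314 FPKM for Aldoa and 73.8 against 143 for Aldoc. The summed FPKM of the 35 members was 1454 in WT cortex, 2117 in vKO cortex, 2218 in WT subcortex and 2147 in vKO subcortex.

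The calls in cortex are set out here by transcript length, near-identical copies and level. Of tested members with transcripts under 2000 bases, 6 of 11 rose, against 20.7% of all tested genes of that length. From 2000 to under 4000 bases 3 of 15 rose (6.08% of all such genes), and at 4000 bases or more 3 of 9 rose (1.47%), namely Hk2, Slc16a3 and Pdk1. Across the 35 members the Spearman correlation of ratio with length was -0.375 in cortex. With the trend removed, the median log2 ratio of the members in cortex was 0.15 in place of 0.29, and all 12 risers kept a ratio above 0. Of members with at least 1 near-identical copy 7 of 11 rose (Gpi1, Tpi1, Gapdh, Pgk1, Eno1, Ldha and Ldhb), and of those without a copy 5 of 24 (Hk2, Aldoa, Aldoc, Slc16a3 and Pdk1). Copies were searched for the members alone, so this split has no share over all tested genes beside it, and the part of the copies was not tested. Most members are abundant, and among those with a mean FPKM of at least 10, 10 of 27 rose, against 10.9% of all tested genes at that level. In the search for copies, Pfkp, Pfkfb2, Pkm and Pdha1, none of which was called in either tissue, matched annotated genes that overlap them. Overlap was not searched for in any other way, so called members may overlap other genes as well. For example, the deposited entry of Mpc1, called in subcortex, ends at 8327442 and the gene at 8297661. That of Tpi1, called in cortex, starts at 124808941 and the gene at 124810586. Whether the counting used the strand is not stated.

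**Figure D4:**
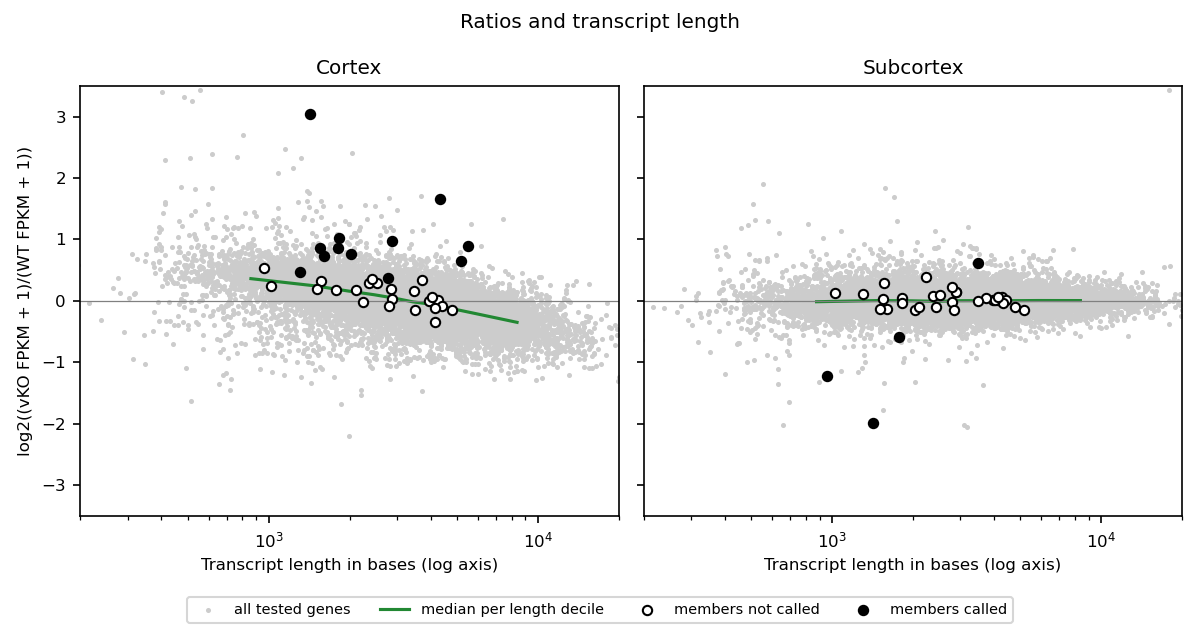
Log2 ratio of vKO to WT, log2((vKO FPKM + 1)/(WT FPKM + 1)), against transcript length in bases (log axis) in cortex at left and subcortex at right, for ratios within the axis limits. Grey dots are all tested genes, the green line joins the medians of deciles of length, open circles are members not called and filled circles members called in the authors' deposited table. In cortex the line falls with length and all 12 filled circles lie above it, and in subcortex the line is flat with 3 filled circles below 0.

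Markers of several cell types also differed between the cortex groups, and their part in the members' ratios was not tested. Of 10 microglia and macrophage markers 7 rose by the authors' deposited table. The list summed to 50.9 FPKM in WT cortex and 160 in vKO cortex. Lyz2 (3.14 and 47.9) and Tyrobp (8.59 and 27.5) were highest in vKO cortex, and C1qa (10.3 and 27.0) was highest in WT cortex. Those not called were Csf1r (5.44 and 7.06), Fcrls (5.16 and 6.23) and P2ry12 (2.41 and 2.06). Erythroid markers summed to 76.3 and 1310 FPKM, with 1 of 5 tested called (Alas2). The globin entry that Hba-a1 shares with Hba-a2 (56.0 and 613 FPKM) and the separate entry of Hba-a2 (14.2 and 613) were not called. In WT, 1 marker was listed at 0. Of 8 endothelial markers 4 fell, and the list summed to 92.3 and 61.5 FPKM, with Cldn5 at 46.8 and 24.6 and Kdr at 10.98 and 5.30. Another of the 4, Flt1, had a log2 ratio of -0.58 that was -0.12 with the trend removed. Of the endothelial markers not called, Pecam1 (6.49 and 8.47) and Tie1 (4.32 and 4.58) stood higher in vKO. Cdh5 (6.89 and 6.80) and Tek (4.23 and 3.57) stood lower. Of 8 astrocyte and radial glia markers, Fabp7 (723 and 965 FPKM) and Vim (99.9 and 171) rose and Aqp4 fell; with the trend removed the log2 ratio of Fabp7 was 0.03 in place of 0.42. Of 5 pericyte markers 1 was called higher and 1 lower, the latter (Cspg4) with a log2 ratio of -0.41 that turned to 0.17 with the trend removed. The list summed to 43.7 and 47.1 FPKM, with Rgs5 at 27.6 and 30.7 and Kcnj8, which rose, at 3.42 and 6.01. None of 8 neuron markers was called. They summed to 2110 and 2310 FPKM, with Tubb3 at 1206 and 1377 and Stmn2 at 349 and 426. In subcortex the sums were 82.4 and 95.3 FPKM for microglia and macrophages (1 of 10 rose), 129 and 154 for erythroid markers (0 of 5 called), 72.8 and 79.1 for endothelium (2 of 8 rose) and 41.5 and 45.6 for pericytes (1 of 5 rose). There the 8 neuron markers summed to 2320 and 2380 FPKM and the 8 astrocyte and radial glia markers to 1950 and 1780, with 0 called.

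Of 80 genes of neighbouring pathways in 8 lists 79 were found, and 67 were tested in cortex, of which 3 were called higher and 3 lower in the authors' deposited table, beside 8.15% higher and 11.3% lower over all tested genes. Their median log2 ratio was 0.11, and 0.03 with the trend removed. All 3 that rose belong to succinate dehydrogenase, the citric acid cycle enzyme that is also part of the respiratory chain. Another subunit of this enzyme, Sdha, stood at 53.4 and 55.5 FPKM and was not called (q = 0.851 in the authors' deposited table). Sdhb rose from 86.0 to 121 FPKM, Sdhc from 57.0 to 76.1 and Sdhd from 46.0 to 66.3, with q = 0.00765, 0.0339 and 0.00492 in the authors' deposited table. Their log2 ratios of 0.49, 0.41 and 0.52 were 0.09, 0.39 and 0.28 with the trend removed. They were the only ones called of 16 citric acid cycle genes; Mdh2, the most abundant of them in cortex, stood at 108 and 123 FPKM. The genes that fell were Slc16a7, a monocarboxylate importer of neurons (12.9 to 8.58 FPKM, log2 ratio -0.54 and -0.32 with the trend removed), Slc2a13, a proton and myo-inositol transporter (5.79 to 4.04), and Ldhd, a D-lactate dehydrogenase (1.18 to 0.511), with q = 0.00492, 0.0113 and 0.0231 in the authors' deposited table.

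In 5 further lists no gene was called in cortex. The pentose phosphate pathway had 0 of 8 called, with Taldo1 at 81.2 and 101 FPKM and Tkt at 76.4 and 92.6. Glycogen metabolism had 0 of 9, with Pygb at 37.9 and 34.7 FPKM and Ugp2 at 18.5 and 21.04. The cytosolic redox shuttles, which return NADH electrons to mitochondria, had 0 of 8, with Mdh1 at 95.1 and 115 FPKM and Got2 at 48.7 and 54.4. Gluconeogenesis had 0 of 2 tested, with G6pc3 at 6.06 and 7.12 FPKM and Pck2 at 3.61 and 4.09, and the other genes of the pyruvate dehydrogenase complex had 0 of 5, with Dld at 32.3 and 38.7 and Pdp1 at 20.8 and 20.996. Among further isoforms and regulators of glycolysis 1 of 10 tested was called (Ldhd), and among further hexose and monocarboxylate transporters 2 of 9 (Slc16a7 and Slc2a13).

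The glucose transporter of the blood-brain barrier and of glia, Slc2a1, was the single neighbouring gene called in subcortex, where it rose from 12.8 to 21.9 FPKM, a log2 ratio of 0.73, with q = 0.0104 in the authors' deposited table. Its cortex values were 16.9 FPKM for WT and 13.6 for vKO, with q = 0.152 in the authors' deposited table. Of 66 neighbouring genes tested in subcortex 0 fell, and their median log2 ratio was 0.01. The abundant genes of the other lists lay near WT there: Mdh1 at 156 and 150 FPKM, Got2 at 68.8 and 72.6, Mdh2 at 122 and 141, Sdhb at 131 and 134, Pgls at 79.3 and 89.2, and Taldo1 at 70.8 and 74.3. Further values were 55.4 and 62.2 FPKM for Pygb, 23.1 and 23.7 for Gyg, 44.9 and 39.9 for Dld, 22.5 and 22.4 for Pdhx, 36.8 and 32.7 for Bpgm, 30.2 and 33.4 for Pgam5, 11.2 and 11.5 for G6pc3 and 5.53 and 5.63 for Pck2. Bsg, the chaperone that brings monocarboxylate transporters to the membrane, stood at 165 and 170 FPKM in cortex and at 210 and 197 in subcortex.

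**Figure D5:**
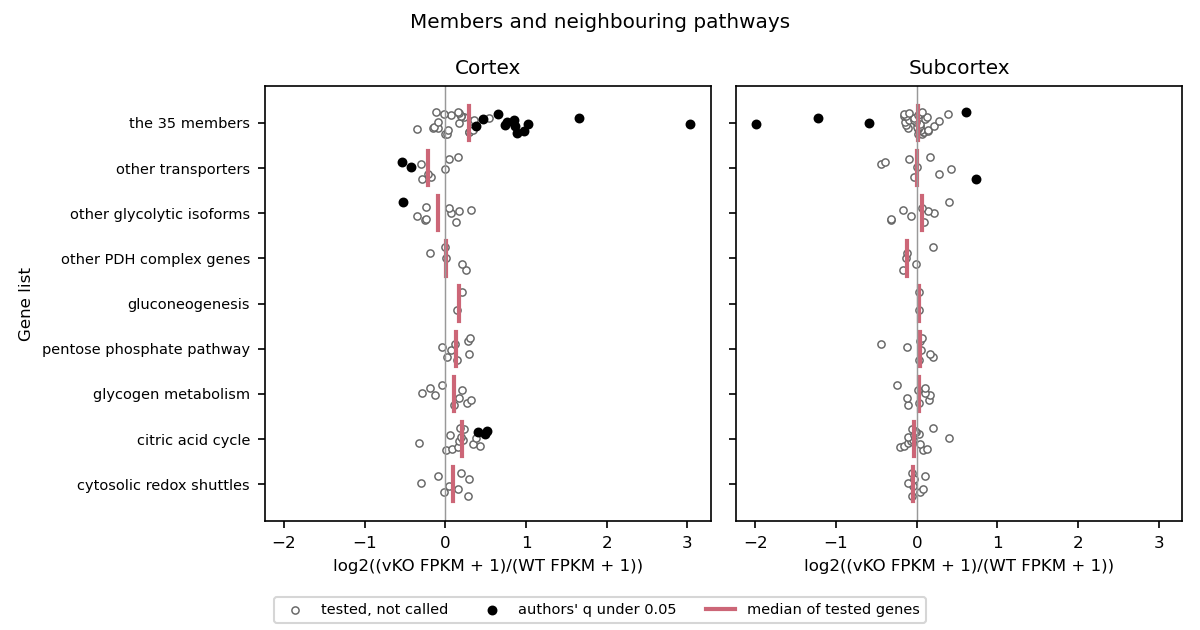
Log2 ratio of vKO to WT, log2((vKO FPKM + 1)/(WT FPKM + 1)), of each tested gene of the 35 members and of 8 neighbouring gene lists, in cortex at left and subcortex at right. Filled circles had q under 0.05 in the authors' deposited table, open circles did not, and the red bars are the medians of the tested genes. In cortex the members' row holds 12 filled circles right of 0 and the citric acid cycle row 3, and in subcortex the members' row holds 3 left and 1 right of 0.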

How the data were processed

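RNA of 12 libraries was measured. The submitters' processing notes name HISAT2 2.0.1, Cufflinks 2.2.1, Cuffdiff without a version, and the mm10 build; the gene annotation, the counting strand and the treatment of reads with several matches are not given in the sources used here. Per the file headers, the authors deposited 1 table per tissue with 1 FPKM value per gene and group. Each authors' deposited table also gives a p-value and a q-value per gene, per the file headers. Column letters W and M were read as WT and vKO, the genotypes of the labels. Depth is unknown from these files. Entries that the authors marked as not tested took part in no count of calls.

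Log2 ratios were computed with a pseudocount of 1, so that ratios of genes with low FPKM are understated. The trend with length and GC content was the median ratio of tested genes in 100 cells (10 bins of transcript length by 10 of GC content), from the longest protein-coding transcript in GENCODE M21. Near-identical copies share at least 95% identity over 200 bases (BLAST+ 2.17.0) and lie outside the gene. Of the 80 neighbouring genes, Tigar was not found by symbol. All 35 members are named. Of each neighbouring list, up to 4 called genes or the 2 with the highest FPKM are named. Of each cell type list, the 2 with the highest FPKM in either cortex group are named. Genes given beyond this were chosen after their values were seen. They are Alas2, Aqp4, Flt1, Cspg4, Bsg, C1qa, Csf1r, Fcrls, P2ry12, Pecam1, Tie1, Cdh5, Tek, Sdha, and Mdh2 and Slc2a1 in cortex. Positions are on mm10 (GRCm38). The members and lists were chosen with earlier results of these data known. Alternatives were other thresholds and pseudocounts, centring, the trend removal and leaving out members with copies. Python 3.11.15 with pandas 2.3.3 was used.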

Additional observations from a re-analysis of the deposited data

How the results depend on the processing

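In cortex the 12 members called higher were 9 at a q-value under 0.01 (authors' deposited table) and 10 with a fold of at least 1.5. They were 12 after adjustment over genes of at least 1 FPKM. The count called lower was 0 in each. The shares of all tested genes called at these settings are not given here. These counts therefore show which calls stay and not whether the members exceed other genes. Leaving out the 11 members with near-identical copies, an alternative chosen after the data were seen, left 5 called higher in cortex. In subcortex it left 0 called lower in place of 3. The threshold of 0.01 could call no gene in subcortex, where the lowest q-value in the authors' deposited table was 0.0104. The median log2 ratio of the members in cortex, 0.29, was 0.31 with a pseudocount of 0.1, 0.20 with 5, 0.15 with the trend removed and 0.17 without members with copies. In subcortex the median over all 35 members, 0.014, was 0.0167 with a pseudocount of 0.1, 0.027 without members with copies and -0.021 with the trend removed. Trend removal reversed the sign of 14 of the 70 single values, none of them called in the tissue concerned: in cortex Slc2a3 0.016, Pfkfb3 0.0016, Pgam1 -0.0102, Mpc2 -0.16, Pdhb -0.0903, Pdk3 -0.0128 and Pcx 0.0351, and in subcortex Slc2a3 -0.0071, Hk1 -0.0211, Hk2 -0.0281, Pfkl -0.0401, Pfkfb4 -0.051, Aldoa -0.0021 and Pcx -0.0265. The pseudocounts of 0.1 and 5 and centring on the median reversed 0 of the 70. The causes of these shifts were not tested. No paired analysis was possible because the deposited tables hold 1 value per group and no replicate columns, and for the same reason leaving out each replicate was not run. Depth is unknown, so no limit from counting can be set on low members such as Hk2, Pdk4 and Slc16a3.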
